A study of Mus musculus with 2 samples.

Results

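Collagen needs a set of dedicated enzymes and a chaperone before it becomes a stable fiber, and 10 genes for these steps were read from the RNA-seq libraries of hepatic stromal cells. They were taken by symbol from a list of collagen-modifying genes, and all 10 were found among the 36458 genes with a symbol in the GENCODE M21 annotation, out of 38320 entries in each file. They encode the catalytic subunits of the collagen prolyl 4-hydroxylases (P4ha1, P4ha2), the lysyl hydroxylases (Plod1, Plod2, Plod3), the collagen chaperone HSP47 (Serpinh1), lysyl oxidases (Lox, Loxl1, Loxl2) and a procollagen C-proteinase enhancer (Pcolce2). The cells came from adult male mice of a C57/Bl6 strain that had received carbon tetrachloride (CCl4), a hepatotoxin that causes liver fibrosis, for 5 weeks. Foxf1 fl/fl mice carry floxed alleles of the forkhead transcription factor gene Foxf1 and served as controls. The αSMACreER;Foxf1 fl/fl mice, called knockout here, carry the same alleles and a tamoxifen-inducible Cre under the promoter of α-smooth muscle actin, which is active in myofibroblasts. The study gave tamoxifen during the injury period, so other cell types of the liver keep the floxed alleles intact where that promoter is silent. Liver cells that adhered to a culture dish within 2 hours were collected, RNA was pooled within a genotype, and 1 library per genotype was sequenced with 75-base single-end reads. Differences between the genotypes therefore have no replicate check, no p-value is given, and all intervals below cover counting error alone. Foxf1 was not analysed here, so its deletion was not checked in these libraries.

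Procollagen chains are modified in the endoplasmic reticulum while they are being made. Prolyl 4-hydroxylases hydroxylate prolines, which lets the triple helix stay folded at body temperature, and lysyl hydroxylases hydroxylate lysines that later carry sugars and crosslinks. HSP47 binds the folded helix and accompanies it toward the Golgi. After secretion, proteinases remove the propeptides with the help of enhancer proteins, and lysyl oxidases, which are copper enzymes, oxidize lysines so that collagen and elastin molecules become crosslinked. In the injured liver these steps are carried out largely by hepatic stellate cells (HSCs) and by the myofibroblasts that derive from them, and crosslinked collagen is known to resist degradation.

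Gene levels were deposited as FPKM (fragments per kilobase of transcript, relative to the mapped fragments of the library), which can be compared between genes because they are scaled to transcript length. The depth estimated from the spacing of low values was about 9.92 M reads for the control library and 11.4 M for the knockout library. The log2 fold change (log2FC) is log2(FPKM + 0.1) of knockout minus control after scaling to a median ratio of 1. The 12692 genes whose FPKM averaged 1 or more were compared. Stellate cell and myofibroblast markers spanned a wide range of levels. Low values were found for Des (desmin) at an FPKM of 1.70 and 3.29, Acta2 (α-smooth muscle actin) at 7.77 and 5.65 and Lrat (which stores vitamin A) at 0.08 and 0.11. The summed FPKM of 20 stellate cell and myofibroblast markers was 2179 in the control and 2434 in the knockout library, and 3 of the 15 compared rose at least 1.5-fold while 1 fell. Most of this sum came from Vim (vimentin, also made by other cell types), at 1836 and 1996, while Ecm1 had 143 and 178 and Dcn (decorin) 127 and 186. That of 15 macrophage markers was 16646 and 13946, with 1 of 15 down at least 1.5-fold, and that of 12 endothelial markers was 1374 and 1293, with 1 of 12 up. All 18 hepatocyte markers fell at least 1.5-fold, and their sum went from 5934 to 2375. The sums were 134 and 136 for 11 markers of portal fibroblasts and mesothelium, with 1 of 10 compared up, and 558 and 659 for 7 cholangiocyte markers, with 1 of 6 compared down. Of the latter sum, Spp1 (osteopontin) alone gave 495 and 606, a larger rise than that of the sum. Of the first markers in the macrophage and endothelial lists, Clec4f was at an FPKM of 1117 and 753, Cd68 at 646 and 679, Adgre1 at 162 and 165, Pecam1 at 93.3 and 96.6, Cdh5 at 98.4 and 113 and Kdr at 39.95 and 47.3. Of the 15 macrophage markers, 13 had a negative log2FC and 2 a positive one. Their median was −0.34, or −0.12 with the length trend described below removed. Of the 12 endothelial markers, 9 were positive and 3 negative, with a median of 0.18 (0.01 with that trend removed). Alb (albumin) went from 2292 to 912, Ttr from 322 to 86.8 and Apoa1 from 261 to 84.2. Thy1 had 13.1 and 11.8, Entpd2 2.68 and 2.33 and Fbln2 19.6 and 25.6 for portal fibroblasts, and Krt7 4.91 and 6.91, Krt19 39.7 and 29.5 and Epcam 8.38 and 5.65 for cholangiocytes. Krt19 was also in the list of portal fibroblast and mesothelial markers, where it had the highest FPKM in both libraries, so its fall enters both sums. No marker of these lists was at 0 in either library. In bulk RNA, fewer cells of a type and less RNA per cell cannot be told apart, and the part of each cell type in the results below was not tested.

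The 10 genes fell into a high and a low group by level, which is shown by the plot of FPKM by gene. Plod3, Serpinh1, Plod1, P4ha1 and Pcolce2 had an FPKM of 65.8, 64.8, 56.9, 47.7 and 38.3 in the control library. The other 5, P4ha2, Loxl1, Lox, Plod2 and Loxl2, had 8.92, 7.42, 6.67, 6.19 and 4.03. Among compared genes of the control library each of the first 5 had a percentile of 80.7 (Pcolce2) or more, while the other 5 lay between 29.6 (Loxl2) and 49.3 (P4ha2). In the knockout library the order within the high group became Serpinh1 (78.7), Plod3 (69.2), Plod1 (58.3), P4ha1 (46.6) and Pcolce2 (18.3). In the low group it became Lox (10.4), Loxl1 (8.61), Plod2 (8.0), P4ha2 (6.15) and Loxl2 (4.97). Neighbors such as Plod3 and Serpinh1 in the control library differed by less than their counting intervals, and so did Loxl1 and Plod2 in the knockout library.

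**Figure D1:**
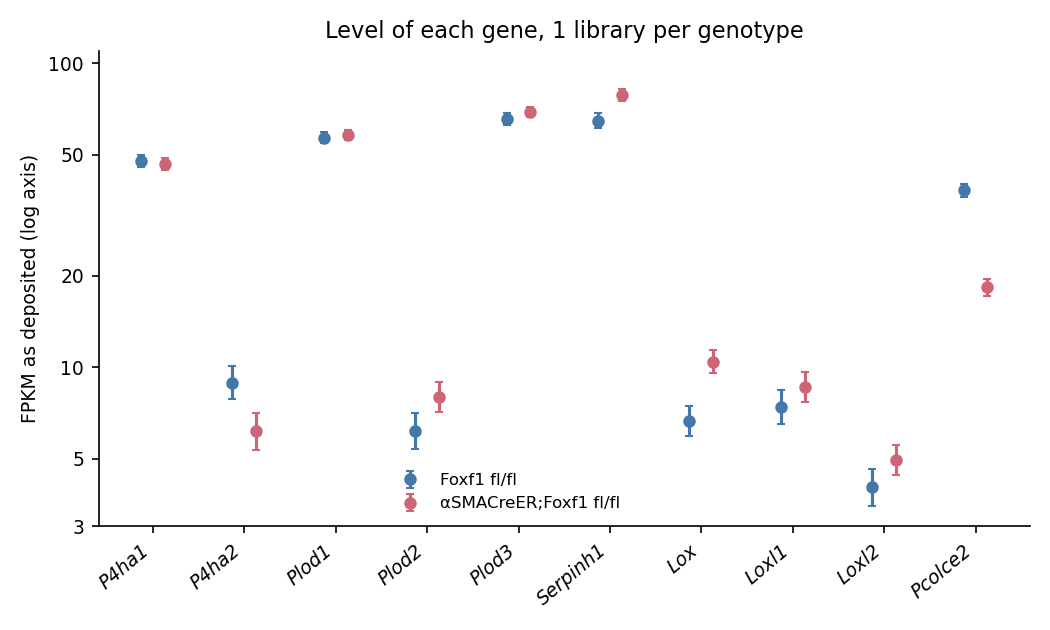
FPKM of each of the 10 genes in the control and knockout libraries on a log axis, where each point is 1 pooled library and the bars are approximate 95% Poisson counting intervals. Pcolce2 dropped from 38.3 to 18.3 and Lox rose from 6.67 to 10.4, while P4ha1, Plod1 and Plod3 lay almost level.

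Upstream sequences were available for 6 of the 10 genes (P4ha1, P4ha2, Plod1, Plod3, Serpinh1 and Pcolce2) in the RefSeq promoter table of GRCm38.p6, while Plod2, Lox, Loxl1 and Loxl2 had no entry. They were searched on both strands, in the 250 bases before the start site, for the hypoxia response core and the forkhead core TAAACA. The hypoxia response core was searched in the form ACGTG only. These were chosen since oxygen supply is a known regulator of several of these genes and Foxf1 encodes a forkhead factor. ACGTG or its reverse complement CACGT was present upstream of 4 of the 6 genes (P4ha1, P4ha2, Plod3 and Serpinh1), against 16.6% of 32851 promoters of the same length. It was present in 8 of 23 other genes of collagen maturation with an entry. TAAACA or TGTTTA was present in 0 of the 6, against 12.0% of all promoters, and the palindromic heat shock element TTCNNGAA only in P4ha2, against 7.17%. A match of this kind is a description of the sequence and not of binding. The upstream regions of both prolyl hydroxylase genes, of the abundant chaperone and of the gene with the largest difference are shown, 5′ to 3′, with capitals for ACGTG or CACGT. The 3 motifs do not contain one another. All 4 regions lie outside the annotated exons of their genes, although that of P4ha2 lies downstream of the outermost annotated start. The Pcolce2 region was searched over 250 bases like the others, without a match, and is shown for the 223 bases that precede the first annotated exon.
P4ha1: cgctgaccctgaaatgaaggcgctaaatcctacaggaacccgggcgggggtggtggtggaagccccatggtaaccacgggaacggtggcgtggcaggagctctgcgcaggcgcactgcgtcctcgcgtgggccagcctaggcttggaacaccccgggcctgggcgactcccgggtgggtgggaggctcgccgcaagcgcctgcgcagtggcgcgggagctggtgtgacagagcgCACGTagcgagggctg
P4ha2: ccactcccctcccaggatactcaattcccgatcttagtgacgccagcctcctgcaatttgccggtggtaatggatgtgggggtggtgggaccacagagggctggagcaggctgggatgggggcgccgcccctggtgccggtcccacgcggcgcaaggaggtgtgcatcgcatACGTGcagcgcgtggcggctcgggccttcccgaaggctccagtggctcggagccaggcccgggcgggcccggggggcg
Serpinh1: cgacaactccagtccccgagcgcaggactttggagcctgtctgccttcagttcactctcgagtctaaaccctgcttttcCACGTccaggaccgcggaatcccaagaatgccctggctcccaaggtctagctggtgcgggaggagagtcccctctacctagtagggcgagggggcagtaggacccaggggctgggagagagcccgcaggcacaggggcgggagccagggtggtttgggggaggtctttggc
Pcolce2: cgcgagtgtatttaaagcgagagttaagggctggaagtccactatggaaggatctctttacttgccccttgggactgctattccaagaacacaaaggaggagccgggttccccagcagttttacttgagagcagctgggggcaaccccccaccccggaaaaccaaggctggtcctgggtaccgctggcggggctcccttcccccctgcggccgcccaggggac
The P4ha1 region lies at chr10:59323046-59323295 on the plus strand, with the match starting 16 bases before the start site. The P4ha2 region lies at chr11:54100674-54100923 on the plus strand, with the match 78 bases before it. The Serpinh1 region lies at chr7:99353240-99353489 on the minus strand, with the match 171 bases before it, and the Pcolce2 region at chr9:95637378-95637600 on the plus strand.

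Prolyl 4-hydroxylase is a tetramer of catalytic α subunits and β subunits, and the α subunits carry the catalytic site. P4ha1 (ENSMUSG00000019916, chromosome 10 from 59323296 to 59373304, plus strand of GRCm38), the gene of the main catalytic subunit, had an FPKM of 47.7 in the control and 46.6 in the knockout library. The log2FC of P4ha1 was −0.06 (−0.15 to 0.03, a 95% counting interval), from about 1817 and 2033 reads. P4ha2 (ENSMUSG00000018906, chromosome 11 from 54100095 to 54131665, plus strand), the gene of the alternative subunit, had 8.92 and 6.15, a log2FC of −0.55 (−0.84 to −0.29), or 1.47-fold lower, from about 253 and 200 reads. The P4ha2 level was thus lower in the knockout library by more than the counting error, yet short of the 1.5-fold threshold used by the study. P4hb, which encodes the shared β subunit, protein disulfide isomerase, was far more abundant, and it fell from 692 to 463, a log2FC of −0.60 (−0.64 to −0.57), which only just passed 1.5-fold. It was short of it with values as deposited (−0.578), upper-quartile scaling (−0.563), the length trend removed (−0.5835) and an equal FPKM sum (−0.41). The third catalytic subunit gene, P4ha3, was close to 0 in both libraries (0.11 and 0.04) and was not compared. Hepatocytes make protein disulfide isomerase in quantity, and the 18 hepatocyte markers fell in the same library with a median log2FC of −1.51; the part of these cells in the P4hb and P4ha2 values was not tested.

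The lysyl hydroxylases were expressed at very different levels. Plod3 (ENSMUSG00000004846, chromosome 5 from 136987019 to 136996648, plus strand), whose product also transfers sugars to hydroxylysine, had an FPKM of 65.8 and 69.2, a log2FC of 0.05 (−0.04 to 0.13). Plod1 (ENSMUSG00000019055, chromosome 4 from 147909753 to 147936767, minus strand), whose product acts on lysines of the triple helix, had 56.9 and 58.3, a log2FC of 0.01 (−0.07 to 0.09). Both genes lay almost level between the genotypes. Plod2 (ENSMUSG00000032374, chromosome 9 from 92542223 to 92608428, plus strand) encodes the enzyme for telopeptide lysines, which leads to the hydroxylysine-derived crosslinks of fibrotic tissue. It had 6.19 and 8.0, a log2FC of 0.34 (0.09 to 0.60), from about 213 and 315 reads. Plod2 was higher in the knockout library by more than counting error, but it did not reach 1.5-fold. The exons of Plod3 share 529 bases with Znhit1 on the opposite strand, which had 54.6 and 49.5, and without strand information reads there cannot be told apart.

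Serpinh1 (ENSMUSG00000070436, chromosome 7 from 99345375 to 99353230, minus strand) encodes HSP47, the chaperone that binds procollagen and whose loss prevents the formation of normal collagen fibers. It had an FPKM of 64.8 in the control and 78.7 in the knockout library, a log2FC of 0.25 (0.15 to 0.36) or 1.19-fold, from about 1334 and 1855 reads. The level was higher in the knockout library, and Serpinh1 became the most abundant of the 10 genes there.

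Pcolce2 (ENSMUSG00000015354, chromosome 9 from 95637601 to 95698096, plus strand) encodes an enhancer of the proteinases that cut off the C-propeptide of procollagen. Its FPKM fell from 38.3 to 18.3, a log2FC of −1.09 (−1.21 to −0.97) or 2.12-fold lower, from about 1610 and 882 reads. This was the largest difference among the 10 genes, and its direction and its place past 1.5-fold held under each scaling, pseudocount and length alternative, with values from −1.27 to −0.89. Pcolce, which encodes the related enhancer, had 30.5 and 26.5, a log2FC of −0.23 (−0.38 to −0.08). The fall of Pcolce2 accompanied that of the hepatocyte markers, of which the least affected, Trf (transferrin), had a log2FC of −0.68 (−0.49 with an equal FPKM sum) and the most affected, Ttr (transthyretin), −1.92; their part in it was not tested.

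Lysyl oxidases catalyze the last enzymatic step, the oxidation of lysines in collagen and elastin. Lox (ENSMUSG00000024529, chromosome 18 from 52516069 to 52529867, minus strand), the founding member, rose from an FPKM of 6.67 to 10.4, a log2FC of 0.61 (0.41 to 0.83) or 1.53-fold, from about 301 and 539 reads. Its lower interval bound lies below the log2 value of 0.58 that corresponds to 1.5-fold, and with a pseudocount of 1 or with the length trend removed it was 0.55 and 0.42, both short of 1.5-fold. Loxl1 (ENSMUSG00000032334, chromosome 9 from 58287723 to 58313212, minus strand), which is required for elastic fibers, had 7.42 and 8.61, a log2FC of 0.18 (−0.06 to 0.44). Loxl2 (ENSMUSG00000034205, chromosome 14 from 69609171 to 69695833, plus strand), a crosslinking enzyme of fibrotic matrix and of collagen IV, had 4.03 and 4.97, a log2FC of 0.27 (0.02 to 0.55), from about 204 and 289 reads. Both were higher in the knockout library, but only Loxl2 had a counting interval above 0, and just barely. With the length trend removed Loxl1 had 0.18 and Loxl2 0.02. Of the members of the family outside the 10 genes, Loxl3 had 3.37 and 5.19 (log2FC 0.58, 0.28 to 0.92), just short of 1.5-fold, and Loxl4 had 1.12 and 1.5 (0.36, −0.21 to 1.02). Loxl3 passed 1.5-fold with values as deposited (0.61), upper-quartile scaling (0.62), an equal FPKM sum (0.77) and a pseudocount of 0.01 (0.60). It had 0.48 with a pseudocount of 1 and 0.47 with the length trend removed. All 5 members of the family thus had a higher level in the knockout library, and their summed FPKM went from 22.6 to 30.7.

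Counted together, 1 of the 10 genes (Lox) was at least 1.5-fold higher and 1 (Pcolce2) at least 1.5-fold lower in the knockout library. Among all 12692 compared genes 12.8% were higher and 13.2% lower by this threshold, so the share of the 10 genes past it was near that of all genes. With an equal FPKM sum, 2690 of all genes were higher and 1130 lower, in place of 1624 and 1678. The counting interval was above 0 for 4 genes (Plod2, Serpinh1, Lox and Loxl2), below 0 for 2 (P4ha2 and Pcolce2) and included 0 for the other 4. For the 28 other pathway genes compared, described below, it was above 0 for 15, below 0 for 7 and included 0 for 6. The share of all compared genes with an interval off 0 was not counted, so these numbers have no background. The sign was positive for 7 of the 10, against 50.4% of all genes, and the median log2FC was 0.12, against 0.005 for all genes. With the length trend removed it was 0.03. Scaling to an equal FPKM sum, which moved the median of all genes to 0.20, moved that of the 10 genes to 0.31, and P4ha1 then changed sign to 0.13. The summed FPKM of the 10 genes was 307 in the control and 309 in the knockout library.

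**Figure D2:**
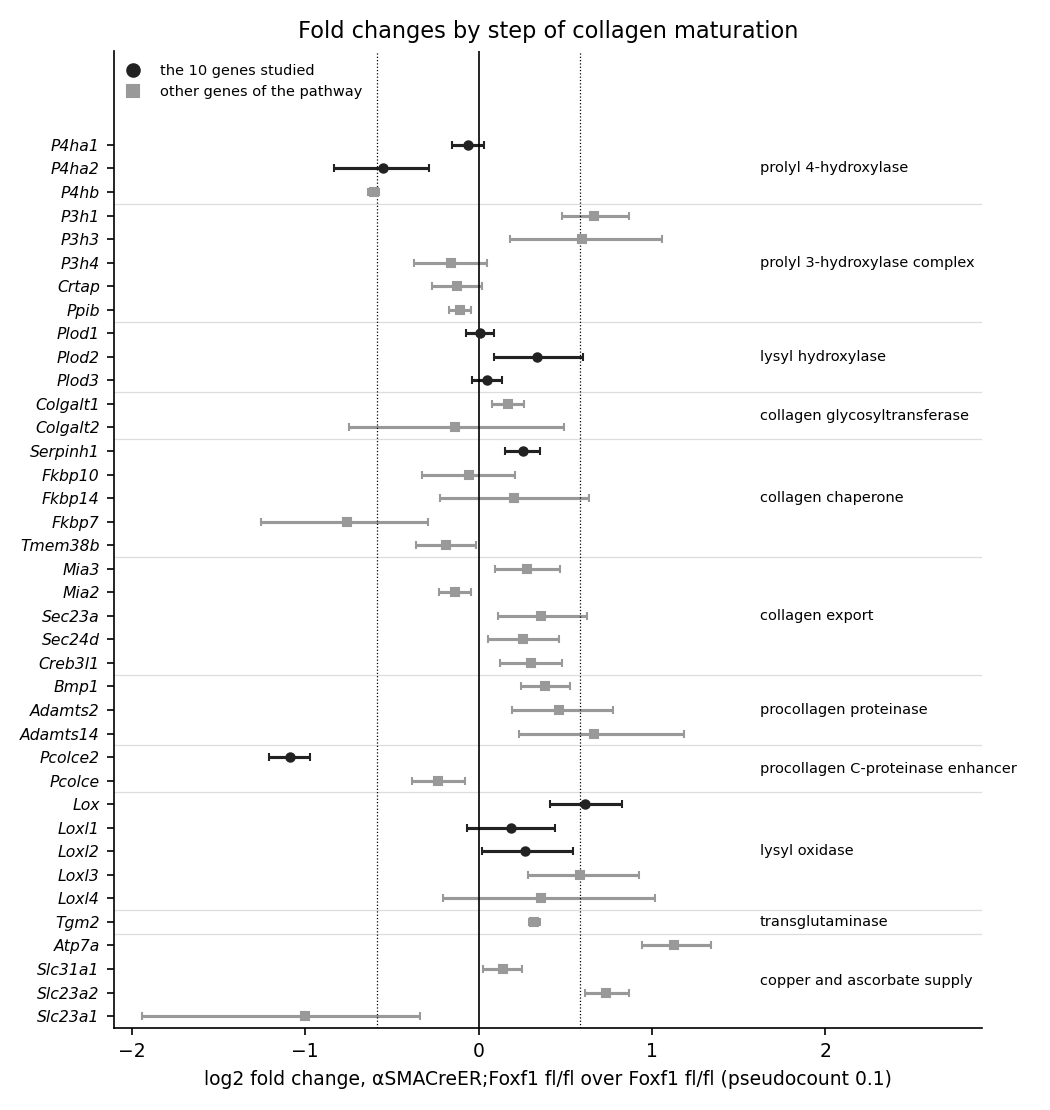
log2FC of the 10 genes (circles) and of the 28 other pathway genes compared (squares), grouped by step; bars are approximate 95% counting intervals and dotted lines mark 1.5-fold. Lox (0.61) and Pcolce2 (−1.09) are the circles beyond the dotted lines, and the lysyl oxidases and procollagen proteinases all lie to the right of 0.

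Shares within a family do not depend on how the libraries are scaled to each other, but they were not adjusted for transcript length. P4ha1 held 84.1% of the summed FPKM of P4ha1, P4ha2 and P4ha3 in the control library and 88.3% in the knockout library. The ratio of P4ha1 to P4ha2 was 5.34 (counting interval 4.68 to 6.12) and 7.57 (6.54 to 8.79), so the intervals of both libraries did not overlap. Plod3 held 51.0% and 51.1% of its family and Plod1 44.2% and 43.0%, while Plod2 held 4.81% and 5.91%. Among the lysyl oxidases the largest share went from Loxl1 to Lox, but the interval of their ratio in the control library included 1. Loxl1 held 32.8% and Lox 29.5% in the control library, against 28.0% and 34.0% in the knockout library. The ratio of Lox to Loxl1 was 0.90 (0.76 to 1.07) in the control and 1.21 (1.05 to 1.40) in the knockout library, and these intervals overlap slightly. The median log2FC of genes as long as Lox was 0.20, and that of genes as long as Loxl1 was 0.006. Between the enhancers the order changed, since the ratio of Pcolce to Pcolce2 was 0.80 (0.73 to 0.87) and 1.45 (1.31 to 1.60), with no overlap. The pairs were chosen after the shares had been seen.

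**Figure D3:**
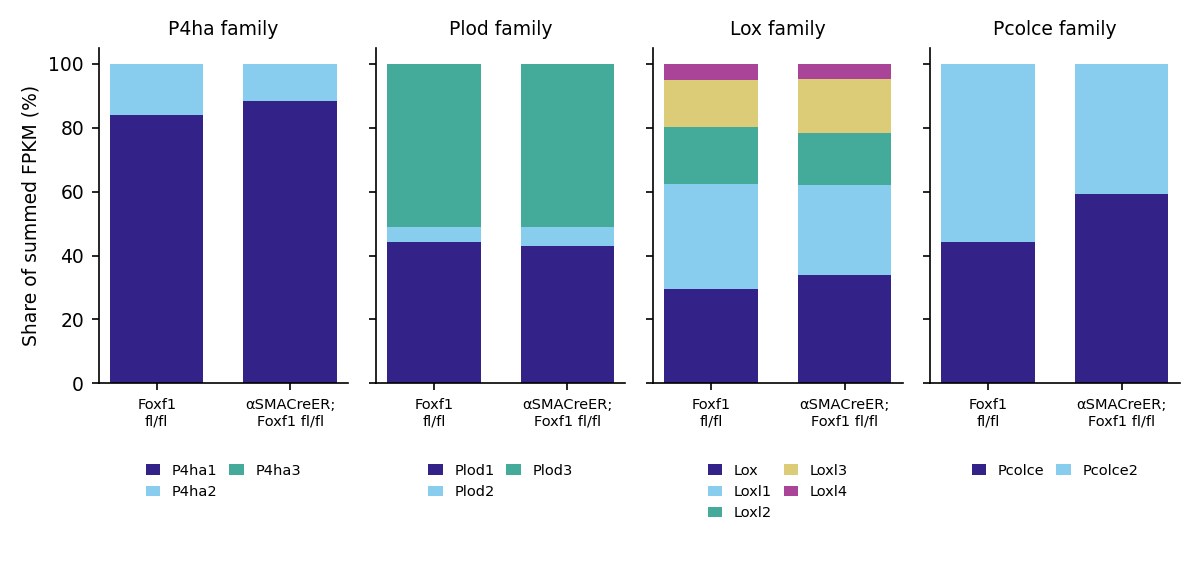
Share of each gene in the summed FPKM of its family, in percent, in the control and knockout libraries (1 library each, no error bars). Pcolce2 went from 55.6% to 40.9% of its family and Lox from 29.5% to 34.0%, while the Plod bars look almost alike.

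The enzymes were then set against their main substrates. The summed FPKM of Col1a1, Col1a2 and Col3a1, the chains of type I and type III collagen, was 287 in the control and 418 in the knockout library, and each chain had a log2FC between 0.49 (Col3a1) and 0.54 (Col1a2). Relative to this sum, a comparison that was added after the data had been seen, 9 of the 10 genes were lower in the knockout library. The sum itself had a log2FC of 0.52, so any gene that rose less comes out lower by construction. The upper quartile of the log2FC of all compared genes was 0.33, so most of them would come out lower too. The count is therefore not particular to these enzymes. Plod3 went from 22.9% to 16.5% of the collagen sum, Serpinh1 from 22.6% to 18.8%, Plod1 from 19.8% to 13.9% and P4ha1 from 16.6% to 11.1%. Pcolce2 went from 13.3% to 4.38%, a log2 difference of −1.61 (approximate interval −1.73 to −1.49). For 7 genes the approximate counting interval of this difference lay below 0. Only Plod2, Lox and Loxl2 had intervals that included 0, with log2 differences of −0.17, 0.10 and −0.24. Lox was the single gene with a positive value, at 2.32% and 2.50% of the collagen sum. The longest transcripts of Col1a1, Col1a2 and Col3a1 have 5930, 5348 and 5564 bases, longer than any of the 10 genes, and fold changes varied with length as described below. With the length trend removed, the log2FC was 0.19 for Col1a1, 0.29 for Col1a2 and 0.16 for Col3a1. Serpinh1 (0.39) and Lox (0.42) were then above all 3 chains, Plod2 (0.25) above Col1a1 and Col3a1, and Loxl1 (0.18) above Col3a1 alone. The lower value of Serpinh1 relative to collagen thus did not hold under this alternative. That of Loxl1 did not hold against Col3a1.

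The other genes of collagen maturation were read from a list of 33, of which 28 were compared and P4ha3, P3h2, Tll1, Tll2 and Adamts3 were too low. Of the 28, 5 were at least 1.5-fold higher (P3h1, P3h3, Adamts14, Atp7a and Slc23a2) and 3 lower (P4hb, Fkbp7 and Slc23a1), and the median log2FC was 0.23. The shares among all compared genes, 12.8% higher and 13.2% lower, were close to these. The prolyl 3-hydroxylase complex did not move as a unit. P3h1, its enzyme, rose from 11.3 to 18.3 (log2FC 0.67, 0.48 to 0.87). Its partners Crtap (52.3 and 48.8) and Ppib (cyclophilin B, 126 and 119) had −0.12 (−0.27 to 0.02) and −0.11 (−0.17 to −0.04). With an equal FPKM sum both partners turned positive, at 0.07 and 0.09, and P3h1 had 0.86. With the length trend removed Crtap had 0.12, Ppib −0.11 and P3h1 0.66. P3h3, a related hydroxylase, rose from 2.61 to 4.08 (0.60, 0.18 to 1.06), but had 0.47 with a pseudocount of 1. Among the chaperones, Fkbp10 (FKBP65, a prolyl isomerase that assists lysyl hydroxylation) had 9.17 and 8.97, a log2FC of −0.06. Fkbp7 fell from 14.0 to 8.41 (−0.76, −1.25 to −0.29), but its value was −0.35 with the length trend removed and −0.57 with an equal FPKM sum, both short of 1.5-fold. Colgalt1, which adds galactose to hydroxylysine, had 57.8 and 66.3 (0.17, 0.08 to 0.26). Of the 5 genes listed for collagen export from the endoplasmic reticulum, 0 passed 1.5-fold, with 4 positive and 1 negative value.

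The proteinases that remove the propeptides were higher in the knockout library in each of the 3 cases compared. Bmp1, the C-proteinase, had 13.6 and 18.1 (log2FC 0.39, 0.25 to 0.53), Adamts2, an N-proteinase, had 2.30 and 3.26 (0.46, 0.19 to 0.77), and Adamts14, another N-proteinase, rose from 1.19 to 1.98 (0.66, 0.24 to 1.18) on about 59 and 112 reads, but had 0.43 with a pseudocount of 1. Bmp1 also cleaves the precursor of lysyl oxidase. With the length trend removed the 3 values were 0.14, 0.10 and 0.42. Tgm2, a transglutaminase that crosslinks matrix proteins by another bond, was abundant, at 413 and 525 (0.32, 0.29 to 0.35).

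Cofactor supply gave the largest rise among the pathway genes. Atp7a, the copper pump that loads lysyl oxidases in the secretory pathway, rose from an FPKM of 6.19 to 13.9, a log2FC of 1.13 (0.94 to 1.34), or 2.18-fold. With the length trend removed Atp7a had 0.93, just below that interval but still past 1.5-fold. Slc31a1, the copper importer of the cell surface, had 29.6 and 33.2 (0.14, 0.03 to 0.25). Slc23a2, a transporter of ascorbate, the cofactor of prolyl and lysyl hydroxylases, rose from 12.7 to 21.6 (0.74, 0.61 to 0.87), although it had 0.40 with the length trend removed, below 1.5-fold. Slc23a1, the ascorbate transporter of epithelia and hepatocytes, fell from 1.47 to 0.70 (−1.0, −1.94 to −0.34) on about 41 and 22 reads, but had −0.55 and was short of 1.5-fold with a pseudocount of 1.

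Fold changes between these libraries varied with transcript length. Across 12692 genes, which are not independent replicates, Spearman's rho between the log2FC and the longest annotated transcript was 0.45, and the median was −0.40 in the shortest 10% of genes and 0.42 in the longest 10%. The longest transcripts of the 10 genes run from 2274 bases (Serpinh1) to 5316 (Loxl2), and 8 of them exceed the median of 3066.5 bases. Genes of the length of Loxl2 had a median of 0.25, and Loxl2 itself had 0.27, which left 0.02. Genes of the length of Lox had a median of 0.20, which left 0.42 for Lox. For Serpinh1, whose length group had a median of −0.14, the difference became larger, at 0.39, and for Plod2 it became 0.25. P4ha2 and Pcolce2 kept −0.53 and −1.27, and P4ha1, Plod1 and Plod3 had −0.18, −0.11 and 0.04. The part of transcript length in these differences was not tested.

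**Figure D4:**
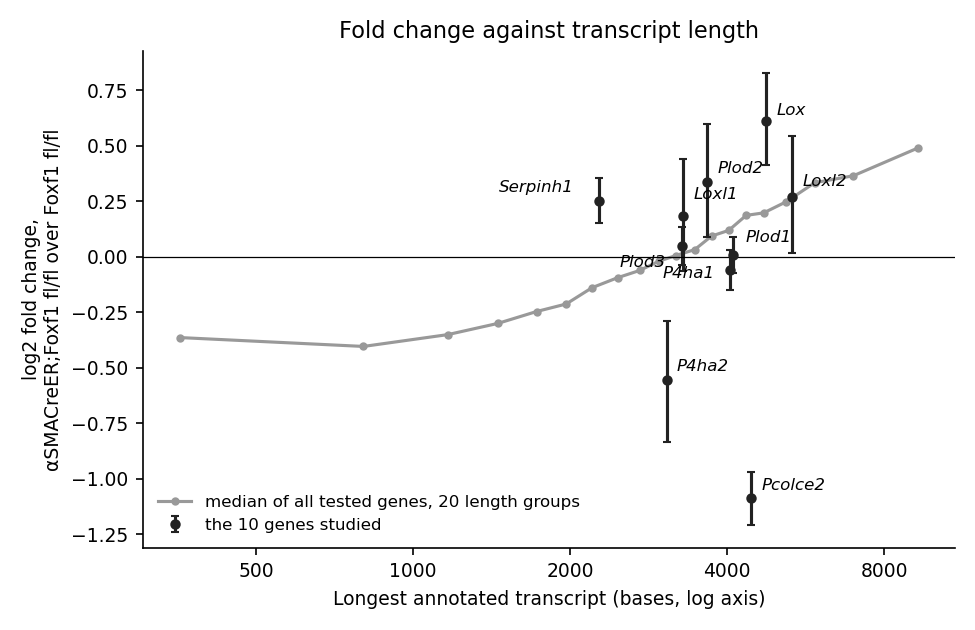
log2FC of the 10 genes (black, with approximate 95% counting intervals) against the length of the longest annotated transcript in bases on a log axis; the gray line joins the medians of all compared genes in 20 groups of length. Loxl2 lies on the line, Lox, Plod2 and Serpinh1 lie above it, and P4ha2 and Pcolce2 lie well below it.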

How the data were processed

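The authors prepared 1 pooled TruSeq library per genotype, aligned its single-end reads to mm10 using TopHat, and deposited FPKM estimated by Cufflinks for each gene identifier together with a status; tool versions are not given in the sources used here. The fold changes of the study came from a separate DESeq-normalized quantification, which was not used. Entries were matched to symbols by gene ID in GENCODE M21 (GRCm38), a symbol with several entries was represented by its most abundant one, and entries without an OK status in both libraries were left out. Gene starts are printed counted from 1. Knockout FPKM was divided by 1.02, the median ratio of genes reaching 1 in both, and log2 was taken after adding a pseudocount of 0.1, which understates the change of low genes. With FPKM and 1 library per group no test was possible.

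Depth was estimated as the library size at which low FPKM values of 6112 genes with a single transcript came nearest to whole reads, with an assumed fragment length of 200 bases. Only 48.5% and 50.6% of 872 and 1015 low values came within 0.1 of an integer, which makes read numbers rough. Reads per gene assume its longest transcript and are too high where shorter ones dominate. Intervals are exact conditional binomial (Clopper-Pearson) intervals at 95%, and those relative to collagen are normal approximations on the log scale. The 10 genes and all lists were chosen with earlier results of these data known. Named were the 10 genes, a fixed set of pathway genes and any others of that list past 1.5-fold, 3 collagens, the 3 most abundant hypoxia genes and the first 3 markers of each list; P4ha3, Slc31a1, Znhit1, Trf, Vim, Ecm1, Dcn and Spp1 were named outside this rule, after their values were seen. The calculations were tested on simulated data and used scipy 1.17.1, pandas 2.3.3, numpy 2.4.6 and Python 3.11.15, with matplotlib 3.10.9 for figures. Promoter sequences are those of RefSeq on GRCm38.p6.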

Additional observations from a re-analysis of the deposited data

How the results depend on the processing

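No paired analysis was possible because the genotypes were sequenced as 1 pooled library each, and for the same reason no library could be left out. Of the 10 genes, 1 was at least 1.5-fold higher and 1 lower. The count of higher genes was 0 with a pseudocount of 1, with the length trend removed and at a threshold of 2-fold, where Lox no longer passed. The count of lower genes, Pcolce2 alone, was 1 under each alternative run. The median of the 10 genes, 0.12, moved to 0.31 with an equal FPKM sum and was 0.03 with the length trend removed. For the other pathway genes, 5 higher became 3 with a pseudocount of 1, with the length trend removed and when a mean FPKM of 5 was required, and 1 at 2-fold. The 3 lower became 1 with the length trend removed, after equal-sum scaling and at 2-fold. Of all genes, 1624 were higher and 1678 lower. After equal-sum scaling these were 2690 and 1130, while 2-fold gave 552 and 788, no filter gave 3832 and 3225, and a required mean FPKM of 5 gave 685 and 943. Removal of the length trend took 4 of the 10 genes beyond their counting interval and equal-sum scaling took 5, and none went beyond it with the other pseudocounts, scalings or handling of repeated symbols. P4ha1 changed sign with an equal FPKM sum (0.13) and Plod1 with the length trend removed (−0.11). Of 42 other named genes, 25 went beyond it after equal-sum scaling and 21 without the length trend. The markers Clec4f (−0.60) and Epcam (−0.59) only just passed 1.5-fold. Both were short of it after equal-sum scaling, at −0.40 each, and with values as deposited (−0.57 and −0.56). They were also short of it with upper-quartile scaling (−0.55 and −0.545) and the length trend removed (−0.50 and −0.37). Epcam was short of it with a pseudocount of 1 as well (−0.52). The comparison with the collagen sum was chosen after seeing the data. Beyond what an alternative itself changes, the cause was not tested. Depth limits Loxl2, P4ha2 and Plod2 most, at about 204, 200 and 213 reads in the library with fewer.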

Other observations

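Low oxygen induces P4ha1, P4ha2, Plod2, Lox and Loxl2 in many cells, and a list of other hypoxia-inducible genes was read beside them. Of 17 such genes compared, 0 were at least 1.5-fold higher in the knockout library and 1 was lower, against 12.8% and 13.2% of all genes, with a median log2 fold change of −0.09. The glycolytic genes Ldha, Aldoa and Eno1, the most abundant, had log2 fold changes of −0.31, −0.09 and −0.04. With the length trend removed these were −0.06, 0.21 and 0.17. The median of the 17 genes was then 0.05, and it was 0.10 with an equal FPKM sum, so its sign depended on the processing. The gene that fell was Ankrd37, named after its value was seen, from an FPKM of 8.13 to 3.8. The 5 genes of the collagen pathway that belong to the hypoxia list had values from −0.55 (P4ha2) to 0.61 (Lox), so they did not share a direction.

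Among 22 collagen and elastin genes, 17 were compared, 16 had a positive log2 fold change and 3 passed 1.5-fold (Col5a2, Col6a3 and Col12a1), with 0 lower, against 12.8% and 13.2% of all genes. A positive value was found for 50.4% of all genes. With the length trend removed Col5a2 had 0.38 and no longer passed. Col4a1 (−0.009), Col4a2 (−0.08), Col14a1 (−0.11) and Col15a1 (−0.11) then turned negative, beside Col18a1 (−0.69), and the others stayed positive. The median log2 fold change was 0.49, and 0.19 with the length trend removed. Eln, which encodes the elastin that lysyl oxidases crosslink, was measured at 3.51 and 4.81 FPKM, with a log2 fold change of 0.42, or 0.32 with the length trend removed. Of these, Col5a2, Col6a3, Col12a1, Col4a1, Col4a2, Col14a1, Col15a1, Col18a1 and Eln were named after their values were seen.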
